A study of Oryza sativa with 24 samples.

Results

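Probe sets whose signal was far lower in the rice genotype Dular than in the genotype PB1, in both tissues and at both phosphate levels, were examined across all arrays of the experiment. Dular is a traditional rice genotype tolerant of low phosphate (Pi), and PB1 (Pusa Basmati-1) is a modern high yielding genotype that is sensitive to it. Seedlings were raised in hydroponics for 15 days with 320 µM Pi (+Pi) or 1 µM Pi (-Pi). Roots and shoots were hybridised separately to the Affymetrix rice genome array, a chip of short oligonucleotide probe sets that report the 3′ part of transcripts. The 24 arrays formed 8 groups of 3, namely Dular root +Pi, Dular root -Pi, Dular shoot +Pi, Dular shoot -Pi and the same 4 groups of PB1. Each RNA came from seedlings pooled together, so an array stood for a pool and not for a single plant. A probe set was chosen by the rule that the mean of the 3 Dular arrays lay at least 5 log2 units (32-fold) below the mean of the 3 PB1 arrays in each of the 4 tissue and Pi combinations. Of 57258 probe sets other than the array's controls, 135 met it and are called members below.

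Probes of this array were designed mainly on sequences of reference rice, and aus and basmati rices such as Dular and PB1 differ from reference rice and from each other in sequence. A short probe loses signal where its target carries mismatches or where the target is missing from the genome, as well as where the transcript is scarce. Both situations give a low value on an array. For one probe set alone they cannot be told apart, and no probe or genome sequence was analysed here. Other probe sets of the same gene can read other stretches of the transcript and are therefore compared with the members below. Some of them are drawn from the same sequence as the member and may share its probes. The deposited values were log2 signals centred on each probe set's median over the 24 arrays, so a value says how one array stood against the others on the same probe set, and different probe sets were not compared in level.

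As the members were selected on the difference between genotypes, this difference is described and was not tested. The difference averaged over the 4 combinations had a median of -7.42 and ran from -12.56 to -5.31. The least negative of a member's 4 differences had a median of -6.16. Of the remaining probe sets, 94 passed -5 in 3 combinations, 206 in 2, 276 in 1 and 56547 in none. The mirrored rule, Dular higher by at least 5 in all 4 combinations, held for 100 probe sets. All 12 Dular arrays lay below all 12 PB1 arrays in 101 of the 135 members, against 1.77% of all probe sets, a count that follows from the rule. At the edge of the rule, the members with the least margin were OsAffx.25021.1.S1_at, Os.54944.1.S1_at of LOC4330829 and Os.14278.1.S1_a_at, whose least negative differences were -5.02, -5.03 and -5.03. The probe sets just outside were Os.27185.1.S1_x_at of LOC4343505, Os.50202.1.S1_at and Os.51078.1.S1_at of LOC4330306, with -4.997, -4.96 and -4.96.

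One library stood apart in the members. In the library labelled PB1 shoot -Pi replicate 2, 30 of the 135 members lay more than 0.9 of the way from the other 2 PB1 shoot -Pi arrays to the mean of Dular, and 34 lay past 0.5 of the way. In 80 members the same library stayed within 0.1 of the way from its group. No other PB1 array passed 0.5 of the way in any member. Of the 100 probe sets far higher in Dular, 20 were past 0.5 of the way to Dular in this library, and 13 of them past 0.9, while each of 3 other PB1 arrays was past 0.5 in 1 or 2. Over all probe sets, 216 lay at least 5 log2 units below and 169 at least 5 above the other 2 arrays of its group, whereas either way together no other library had more than 32. With this library left out, 189 probe sets met the rule, of which 134 were members. All 55 added ones had this library past 0.5 of the way to Dular, a count that follows largely from leaving it out. All 12 Dular arrays then lay below the remaining 11 PB1 arrays in 130 of 135 members, against 2.42% of all probe sets. The reason for the mixed profile was not tested, and values without this library are given beside the counts and the named effects it touches most.

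Tissue markers followed the labels: 6 of 6 probe sets of the shoot genes matched (RCA, rubisco activase, and CAB2R, a light harvesting protein) were lower on all 12 root arrays than on all 12 shoot arrays, and 6 of 6 probe sets of root genes, such as those of the silicon transporters LSI1 and LSI2, were higher in roots on average by 5.36 to 12.23 log2 units. Only 3 of these 6, those of LSI1, LSI2 and YSL15, were higher on all 12 root arrays than on all 12 shoot arrays. The iron uptake genes among the root genes, NAS1, NAS2, YSL15 and IRT1, also differed between genotypes in roots, by -11.22 to 6.25. The RCA probe sets were lower in Dular than in PB1 roots by up to 5.30 at -Pi, which moved with the genotype in the root comparison, and its part in the members was not tested. Probe sets of the constitutive genes ACT1, UBQ5, GAPC1 and TUBA1 differed between genotypes by -0.96 to 0.92. Of the hybridisation controls, BioB was higher on Dular than on PB1 root arrays by 4.98 at +Pi and 4.77 at -Pi, opposite in sign to the members, while BioC, BioDn and CreX differed by at most 0.53 and no control moved by more than 0.19 in shoots.

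The members fell into groups by how the signal behaved within Dular. In 85 of 135 members the 12 Dular arrays lay within a range of less than 1 log2 unit, and in 57 of these within 0.5, across both tissues and both Pi levels. In 24 members the Dular arrays spanned 4 log2 units or more, and the other 26 lay between. In PB1, without replicate 2 of shoot -Pi, the range was below 1 in 32 members, and it exceeded the range in Dular in 93 of 135. No share over all probe sets was set beside these counts, so they describe the members and do not mark them off from the array.

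Of the 10 largest mean differences, 9 were those of flat members. Os.47127.1.A1_at, which the annotation used here pairs with no gene and which is named because it headed the list, had the largest mean difference of all members, -12.56. Its 12 Dular arrays ran from -5.97 through a median of -5.91 to -5.43, and its PB1 arrays from 5.43 through 6.87 to 7.45, so that the genotypes did not overlap on any array. Among members with 1 annotated gene, Os.7929.1.S1_a_at of LOC4328727 on chromosome 2 came first. On this probe set the 12 Dular arrays lay between -0.05 and 0.00. The PB1 root arrays read 13.13, 13.18 and 13.19 at +Pi and 13.12, 13.17 and 13.00 at -Pi, and PB1 shoots at +Pi read 12.28, 12.53 and 12.26. PB1 shoots at -Pi read 12.17, -0.02 and 12.37, the middle value being that of replicate 2. That single array was indistinguishable from Dular, and the other 11 PB1 arrays were all far above. LOC4328727 had 2 further members, Os.7929.2.S1_a_at and Os.7929.4.S1_x_at, with mean differences of -9.43 and -8.88 and the same low value in replicate 2.

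Os.6747.1.S1_a_at of LOC4326058 on chromosome 1 lay between -0.09 and 0.03 on the Dular arrays. PB1 ran from 10.35 to 10.88 on 11 arrays and read -0.06 on shoot -Pi replicate 2. Both members of LOC4349255 on chromosome 10, OsAffx.1887.1.S1_x_at and Os.7121.1.S1_at, differed by -10.54 and -9.33 on average, and in them replicate 2 stood 0.50 and 0.63 of the way to Dular. In other flat members this library did not differ from its group. Os.14679.1.S1_at of LOC4344270 on chromosome 7 stayed between -4.25 and -4.22 over all Dular arrays and between 4.22 and 5.01 over all 12 PB1 arrays. Os.6120.1.S1_at of LOC4329817 on chromosome 2 ran from -4.11 to -4.07 in Dular and from 4.07 to 5.12 in PB1. Os.9787.1.S1_at of LOC4343312, on chromosome 7, ran from -4.60 to -4.08 in Dular and from 4.08 to 6.06 in PB1. In each of these the spread within a genotype was small beside the gap between genotypes.

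Some flat members varied strongly within PB1. Os.15614.1.S1_at, with no annotated gene, read between -3.01 and -2.97 on every Dular array. In PB1 roots it read 4.18, 3.62 and 3.60 at +Pi and 3.73, 3.60 and 2.97 at -Pi, and in PB1 shoots 7.71, 7.77 and 7.51 at +Pi and 7.44, 7.48 and 7.46 at -Pi. Its signal in PB1 thus differed by 3.97 log2 units between tissues, with no overlap of roots and shoots, while in Dular roots and shoots differed by 0.01. Without shoot -Pi replicate 2, 21 of the 85 flat members differed between roots and shoots of PB1 by 1 log2 unit or more, 15 being lower in roots and 6 higher, whereas Dular did not by the definition of the group.

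The 24 members with a wide range in Dular included most of the genes with a known name. They held 3 JAZ genes, JAZ9, JAZ10 and JAZ13, which encode ZIM domain repressors of jasmonate signalling that are themselves induced by jasmonate. They also held DREB1A and DREB1B, AP2/ERF transcription factors of the cold and drought response, and BHLH148, a basic helix-loop-helix factor reported in jasmonate and drought responses of rice. A glycosyl hydrolase family 16 gene (LOC4336904), a C3HC4 zinc finger gene (LOC4330793) and a cytochrome P450 gene (LOC4349792) belonged to them as well. In 21 of the 24 the highest Dular array was root -Pi replicate 1. That library passed 0.5 of the way to PB1 in 14 of the 24, and shoot -Pi replicate 3 did so in 6. No other Dular library passed 0.5 of the way in any of them. PB1 shoot -Pi replicate 2 was at the Dular level in none of the 24, against 26 of the 85 flat members.

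JAZ9 (Os.8088.1.S1_at, chromosome 3) read -6.15, -5.99 and -6.77 in Dular roots at +Pi and 0.85, -4.02 and -5.26 at -Pi. Dular shoots read -4.91, -7.09 and -7.30 at +Pi and -7.18, -6.01 and -2.19 at -Pi. PB1 roots read 2.31, 1.83 and 0.88 at +Pi and 3.95, 3.96 and 3.78 at -Pi, and PB1 shoots 0.20, -0.20 and 0.97 at +Pi and 1.04, 1.87 and 1.51 at -Pi. Replicate 1 of Dular root -Pi was thus the only Dular array within the PB1 range. JAZ10 (Os.9923.1.S1_at, chromosome 3) gave the same order, with -6.53, -6.38 and -6.36 in Dular roots at +Pi and -0.47, -4.25 and -4.39 at -Pi, against 1.96, 1.25 and 0.47 and then 3.13, 3.29 and 3.19 in PB1 roots. JAZ13 (Os.46849.1.S1_at, chromosome 10) read -6.36, -6.90 and -6.88 and then -0.31, -4.53 and -4.88 in Dular roots, against 2.10, 1.24 and 0.73 and then 3.09, 3.07 and 3.13 in PB1 roots. In JAZ10 and JAZ13 no Dular array reached the lowest PB1 array.

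DREB1B (Os.5816.1.S1_at, chromosome 9) read -8.35, -8.27 and -7.93 in Dular roots at +Pi and -1.61, -8.28 and -7.74 at -Pi, so a single array accounted for the higher mean at -Pi. In PB1 all 12 arrays lay between 1.61 and 2.96. DREB1A (Os.14125.1.S1_at, chromosome 9), with 1 gene between it and DREB1B in gene order, read -7.63, -7.73 and -6.90 and then -1.10, -5.39 and -7.79 in Dular roots. In Dular shoots it read -3.29, -5.19 and -7.11 at +Pi and -3.65, -3.80 and -2.27 at -Pi, while PB1 lay between 1.10 and 2.28 on all arrays. Both DREB1 genes thus lay below PB1 on every Dular array.

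BHLH148 (Os.7116.1.S1_at, chromosome 3) ran from -5.10 through -4.25 to -0.52 in Dular, the highest again being root -Pi replicate 1, and from 0.52 through 1.76 to 2.61 in PB1. The glycosyl hydrolase family 16 gene, of a family that cuts and rejoins xyloglucan in cell walls (Os.11354.1.S1_at, LOC4336904, chromosome 4), read -8.21, -8.22 and -8.22 in Dular roots at +Pi and -0.55, -6.23 and -6.90 at -Pi. The C3HC4 zinc finger gene (Os.11365.1.S1_at, LOC4330793, chromosome 2) read -8.38, -8.01 and -8.42 and then -0.68, -6.44 and -7.46. In both the other 2 arrays at -Pi were also higher than those at +Pi, though by far less than replicate 1. The cytochrome P450 gene (Os.14105.1.S1_at, LOC4349792, chromosome 11) read -5.71, -5.42 and -5.40 in Dular roots at +Pi and -0.23, -4.96 and -5.31 at -Pi.

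In other wide members the shift was confined to single arrays. OsAffx.17366.1.S1_at, with no annotated gene, had the widest range in Dular of all members, and read -9.98, -10.28 and -10.27 in Dular roots at +Pi and 0.60, -10.38 and -10.37 at -Pi. Os.15849.1.S1_s_at of LOC4345815 on chromosome 8 read -8.69, -7.49 and -8.69 and then 0.86, -8.57 and -8.69, and Os.6043.1.S1_at of LOC4335417 on chromosome 4 read -8.56, -8.85 and -9.32 and then 0.27, -8.74 and -8.85. In these 3 members the replicate 1 array of Dular root -Pi lay above the lowest PB1 array, while the other 2 arrays of its group stayed with Dular root +Pi. In shoots, the -Pi replicate 3 array was the highest of the Dular shoot arrays in each of the 3, at -2.78, -3.27 and -0.96.

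Among the members with an intermediate range in Dular was SAP17 (Os.20221.1.S1_at, chromosome 9), a zinc finger protein of the stress associated family, which ran from -3.72 through -3.02 to -1.81 in Dular and from 1.81 through 2.88 to 3.74 in PB1. Os.4653.1.S1_at of LOC9268662 on chromosome 1 differed between tissues in the same direction in both genotypes, with -3.25 to -2.26 in Dular roots and -4.78 to -3.74 in Dular shoots, and 3.34 to 3.72 in PB1 roots and 2.26 to 3.21 in PB1 shoots. Roots and shoots did not overlap in either genotype.

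The annotation paired 80 members with 1 gene, giving 75 genes, 2 members with several genes and 53 with none. Of all probe sets, 39.2% had 1 gene and 60.7% none. Among the 80, 77 belonged to protein coding genes, 1 to a pseudogene, 1 to a long non-coding RNA gene and 1 to another RNA gene. Functional descriptions came from a list in the study of transcripts that rose in Dular roots, and covered only 9 members. Since that list was itself selected on these arrays, no functional class was counted. Probe sets designed on expressed sequences, whose names begin with Os, made up 89.6% of the members and 55.4% of the array, the rest carrying the prefix OsAffx. Of the members, 74.8% had the plain ending _at, 10.4% the ending _x_at of probe sets that can hybridise with other transcripts, 8.89% the ending _s_at of those shared by several transcripts and 5.93% the ending _a_at of those shared by transcripts of 1 gene. The corresponding shares of the array were 80.1%, 12.5%, 4.94% and 2.46%.

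Other probe sets of the same genes were compared for a low Dular signal beside that of the member. Where they may share the member's probes, they were no separate reading of the transcript. The annotation gave 49 such probe sets for 30 of the 75 genes. They had not been chosen by the rule, although the removal of the members took the largest differences of each gene away. They were called lower in Dular where the difference was 2-fold or more and its adjusted p did not exceed 0.05, which was so in 23 of 49 cases in roots at +Pi, 24 in roots at -Pi, 20 in shoots at +Pi and 22 in shoots at -Pi, by limma with Benjamini-Hochberg adjustment over all probe sets. Over all probe sets the share called lower was 7.69%, 7.6%, 5.35% and 5.49% in the same order. In shoots at -Pi, 23 were called lower without PB1 shoot -Pi replicate 2, but 12 in a fit to the shoot arrays alone. At least 2-fold higher calls numbered 0, 1, 1 and 3 of the 49, beside 3149, 3820, 2810 and 3378 of all 57258 probe sets. The median differences of the 49 were -1.04, -0.92, -0.82 and -0.80, against medians of 0.05, 0.01, 0.00 and 0.01 over all probe sets. Several probe sets of 1 gene share its transcript and are not independent.

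In 10 of the 49, from 9 genes, the difference was -3 or below in all 4 combinations, so another probe set of the gene read low as well. Probe sets with the same identifier number (such as 9923.1) and another ending are drawn from the same sequence and may share probes. Among the 10, Os.8668.1.S1_at, Os.27078.1.S1_at, Os.27078.1.S1_x_at, Os.9923.1.S1_s_at, Os.7655.1.S2_at and Os.24545.2.S1_at had the number of their member. The rest, Os.7929.5.S1_at, Os.10374.1.S1_at, Os.12122.1.S1_at and OsAffx.23070.1.S1_at, had a number other than the member's. Os.10374.1.S1_at of LOC4351341 on chromosome 12 ran from -0.51 to 0.01 in Dular and had a median of 7.31 in PB1, with differences of -7.80 ± 1.23 (SE; adjusted p = 8.4e-05, limma) in roots at +Pi and -4.83 ± 1.23 (adjusted p = 0.0065) in shoots at -Pi, which was -7.34 without PB1 shoot -Pi replicate 2. Its lowest PB1 array, -0.48, overlapped with Dular. The member of that gene, Os.10374.2.S1_at, differed by -8.58 on average, and its 2 further probe sets by only -1.52 and 0.04. Of LOC4326061 on chromosome 1, Os.27078.1.S1_at and Os.27078.1.S1_x_at differed by -6.36 and -6.30 on average, beside -7.10 of the member. The other probe set of JAZ10, Os.9923.1.S1_s_at, ran from -5.99 through -4.39 to -0.47 in Dular and from 0.47 through 1.27 to 1.79 in PB1 without overlap. It differed by -6.41, -4.31, -5.79 and -4.96 ± 0.73 (SE) in the 4 combinations, with adjusted p = 2.3e-06, 0.00014, 9.9e-06 and 4.1e-05 in limma. For LOC4328727, Os.7929.5.S1_at differed by -5.90, -4.12, -5.51 and -3.02 (adjusted p from 7.6e-06 to 0.0051, limma), the last being -4.52 without PB1 shoot -Pi replicate 2, and for LOC4352472 on chromosome 12, Os.8668.1.S1_at differed by -4.51, -3.65, -3.03 and -4.14, with Dular at -1.25 or lower and PB1 at 1.25 or higher on all arrays.

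In 19 of the 49 the difference stayed within 1 log2 unit in all 4 combinations. In 6 of these the signal spanned less than 0.5 log2 units over all 24 arrays, so that they were nearly flat in both genotypes. The remaining 13, from 11 genes, varied between arrays but not far between genotypes. LOC4348060 on chromosome 10 was the clearest of the genes with the largest member differences. Its member Os.52409.1.S1_at differed by -8.89 on average, with Dular from -0.28 to 0.08 and 11 PB1 arrays at 8.79 or higher, whereas Os.52409.1.S1_s_at was higher in Dular by 0.60, 0.74, 0.46 and 0.45 ± 0.11 (SE), with adjusted p = 0.00044, 6e-05, 0.0055 and 0.0059 in limma. No probe set of HIRL1, a gene named after a hypersensitive response protein, was among the 19, but 1 was also higher in Dular. Its member Os.9473.2.S1_at ran from -2.96 to -2.65 in Dular and from 2.65 to 4.40 in PB1, while Os.9473.1.S1_a_at was higher in Dular by 0.57, 1.15, 1.17 and 1.05 ± 0.12, with adjusted p from 0.00091 to 5.2e-07. A further pair of probe sets of HIRL1 lay between, with mean differences of -1.70 and 0.24.

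Among the wide members, Os.3808.4.S1_x_at of LOC4325662 on chromosome 1 differed by -7.79 on average, while Os.3808.2.S1_x_at of the same gene ran from -3.20 through 0.40 to 1.04 in Dular and from -1.10 through -0.29 to 0.36 in PB1, overlapping throughout, with adjusted p between 0.33 and 0.72 in limma. Other genes were intermediate. For LOC4347149 on chromosome 9, the member Os.17052.1.S1_s_at differed by -8.34 on average and the other 3 probe sets by -2.89, -1.54 and -0.82. For LOC4329817, the member differed by -8.67 and the other 3 by -1.08, -0.85 and 0.37, and for LOC9267440 on chromosome 4, with 3 members between -8.35 and -6.49, the other 3 gave -2.69, -0.53 and -0.17. Members aside, no gene had both a probe set at -3 or below in all 4 combinations and a varying one within 1 log2 unit.

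Probe sets were also paired by the stem of their identifiers, which marks a common cluster of expressed sequences, a comparison added after the data had been seen. Of 76 probe sets sharing a member's stem, 25, 24, 21 and 20 were called at least 2-fold lower in Dular in the 4 combinations. In the same order 6, 4, 6 and 8 were called at least 2-fold higher, beside 3149, 3820, 2810 and 3378 of all 57258 probe sets. The shares of all probe sets called lower are given above. Stem Os.9859 ran in both directions. Its member Os.9859.1.S1_at of LOC4326215 on chromosome 1 had a mean difference of -5.58, whereas Os.9859.2.S1_at was higher by 6.94, 6.22, 7.07 and 4.36 in the 4 combinations, and 2 further probe sets of the stem were higher by 3.24 and 2.69 on average. On Os.9859.2.S1_at the PB1 arrays had a median of -6.18, their highest array reaching 1.63, and the Dular arrays lay between -0.13 and 1.52.

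The 75 genes lay on all 12 chromosomes, with 3 to 11 on each. Genes of 6 pairs were at most 5 places apart in the reference gene order, namely JAZ9 and JAZ10, DREB1A and DREB1B, LOC4346944 and SAP17, LOC4327891 and LOC4327895, LOC4335556 and LOC9267440, and LOC4347149 and LOC4347150. In the library labelled PB1 shoot -Pi replicate 2, both genes were past 0.9 of the way to Dular in 1 close pair. Neither was in the other 5 pairs, as in 46 of the 63 adjacent pairs described below. In LOC4347149 and LOC4347150 on chromosome 9, that library was 0.98 and 1.00 of the way to Dular, and in the other 5 pairs both genes were at most 0.295 of the way. LOC4326058 and LOC4326061 on chromosome 1, with 5 genes between them, were both at the Dular level, at 1.00 and 0.99, whereas LOC4337987 and LOC9271957 on chromosome 5, also with 5 genes between them, differed, at 0.04 and 0.84. Over all 63 pairs of member genes next to each other on a chromosome, most of them far apart, both were past 0.9 in 3, neither in 46 and one of them in 14. The 12 genes past 0.9 lay on 9 of the 12 chromosomes.

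Effects of tissue and Pi, averaged over both genotypes, were tested because the rule had not used them. Of the 135 members, 51 differed between roots and shoots at an adjusted p of at most 0.05 in limma, 31 being higher in roots and 20 lower, beside 23.9% and 16.5% of all probe sets called in these directions. Without PB1 shoot -Pi replicate 2 the counts were 47 and 34, or 81 in all, beside 24.4% and 17% of all probe sets. The median root minus shoot difference of the members was 0.21, against 0.01 for all probe sets. OsAffx.15140.1.S1_at was higher in roots by 2.24 ± 0.33 (SE; adjusted p = 1.46e-05, limma), with similar differences of 2.19 in Dular and 2.46 in PB1. Os.2331.1.S1_at was higher in roots by 1.83 ± 0.21 (adjusted p = 5.77e-07), with -3.36 to -1.87 in Dular roots and -6.20 to -3.24 in Dular shoots. Os.30568.1.S1_at of LOC4327611 was lower in roots by a difference of -1.79 ± 0.41 (adjusted p = 0.00128). Os.15614.1.S1_at, described above, had -1.97 ± 0.08 (adjusted p = 1.47e-13), an average of a difference in PB1 and none in Dular. Os.11365.1.S1_at, the C3HC4 zinc finger gene, had -1.60 ± 0.58 (adjusted p = 0.0349), and without PB1 shoot -Pi replicate 2 the adjusted p was 0.0538.

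At low Pi, 20 members changed in roots, 10 being higher at -Pi and 10 lower, beside 8.83% and 12.2% of all probe sets in limma at the same threshold. Without PB1 shoot -Pi replicate 2, which enters the common estimate of the spread, the counts were 14 and 30, beside 9.37% and 13.2%, and a fit to the root arrays alone called 42 members. The 5 largest effects were all higher values at -Pi, and all belonged to members with a wide range in Dular. JAZ9 was higher by 2.86 ± 0.90 (SE; adjusted p = 0.0288), JAZ10 by 2.68 ± 0.67 (adjusted p = 0.00658), the glycosyl hydrolase family 16 gene by 2.67 ± 0.90 (adjusted p = 0.0429), JAZ13 by 2.61 ± 0.72 (adjusted p = 0.0129) and the C3HC4 zinc finger gene by 2.46 ± 0.82 (adjusted p = 0.0402). Both genotypes contributed to these averages. JAZ10 rose by 3.38 in Dular and 1.98 in PB1 roots as differences of group means, and the glycosyl hydrolase gene by 3.66 and 1.68. The calls of JAZ10 and JAZ13 held in all 32 alternatives, whereas that of the glycosyl hydrolase gene was lost in 21, that of the C3HC4 gene in 13 and that of JAZ9 in 7, quantile normalization and the fit to root arrays among them for each. In Dular roots, replicate 1 at -Pi was the highest array in each of the 5, and the other arrays at -Pi also lay above those at +Pi. Without replicate 1 of Dular root -Pi, JAZ9 had an effect of 1.94 (adjusted p = 0.0650, limma) and the glycosyl hydrolase gene 1.67 (adjusted p = 0.0824). The calls of JAZ10, JAZ13 and the C3HC4 gene held without that array. The counts over the members were then 6 higher and 10 lower, beside 8.05% and 11% of all probe sets. In PB1, JAZ9, JAZ10 and JAZ13 were higher on each root array at -Pi than on each at +Pi.

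In shoots, 12 members changed with Pi, 3 being higher at -Pi and 9 lower, beside 4.06% and 4.83% of all probe sets in limma. Without PB1 shoot -Pi replicate 2 the counts were 5 and 10, beside 3.78% and 4.66%, and without replicate 1 of the same group they were 6 and 16, or 22 in all, beside 20.1% and 6.84%. OsAffx.28164.1.S1_at, which has no annotated gene, was lower at -Pi by a log2 difference of -1.62 ± 0.33 (SE; adjusted p = 0.00427). It read -2.50, -3.13 and -2.93 in Dular shoots at +Pi and -5.92, -5.03 and -7.48 at -Pi, without overlap, while the 6 PB1 shoot arrays lay between 3.02 and 3.30. Os.18932.1.S1_at of LOC4348498 on chromosome 10 was higher at -Pi by 1.19 ± 0.25 (adjusted p = 0.00621), with 3.21, 3.45 and 3.54 and then 4.29, 5.04 and 4.08 in PB1 shoots and -3.55, -3.30 and -2.38 and then -2.51, -0.90 and -1.92 in Dular shoots. Os.34878.1.S1_a_at of LOC4332377 (-0.67 ± 0.18, adjusted p = 0.0267), Os.9787.1.S1_at of LOC4343312 (0.57 ± 0.14, adjusted p = 0.0152) and the long non-coding RNA gene LOC4346944 (Os.14913.1.S1_at, -0.46 ± 0.13, adjusted p = 0.0282) changed less. Without PB1 shoot -Pi replicate 2 the 5 effects were -1.63, 1.04, -0.65, 0.42 and -0.30 in the order named, and the call of Os.34878.1.S1_a_at was lost (adjusted p = 0.0546). In a fit to the shoot arrays alone the last 4 were lost, with adjusted p = 0.0764, 0.115, 0.0810 and 0.165 in that order, and 7 members in all were called, while the call of Os.14913.1.S1_at was also lost without any one of 6 other shoot arrays and that of Os.34878.1.S1_a_at without any one of 3. No difference between roots and shoots was called for the 10 members named for a Pi effect (adjusted p 0.313 or higher, limma). The estimated difference was as large as 1.95 ± 1.02 (SE) for JAZ13, so this does not show equal effects.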

How the data were processed

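Per the file headers and the study's methods, the authors normalized the array signals by GC-RMA in GeneSpring (version not given in the sources used here) and deposited log2 values, which were centred on each probe set's median over the 24 arrays. All 24 columns were matched to a sample. The 123 control probe sets were left out. Group means of the 8 groups were fitted to the 57258 remaining probe sets with limma 3.58.1 in R 4.3.3 (lmFit, eBayes; prior degrees of freedom 0.79), and p-values were adjusted by Benjamini-Hochberg over all of them. No filter was set on dim probe sets, since centred values give no level, and precision is limited by the number of arrays, which was 3 in each group. The 3 arrays of a group were biological replicates per the labels, each from its own pool of seedlings.

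Genes were named from the platform annotation of the probe sets, updated through the reference gene table (assembly ASM3414082v1, used for names and gene order only). The effects of Pi and tissue averaged over genotypes, and the genotype difference in other probe sets of member genes, were tested; within-genotype values were not. Named were the 12 members with 1 gene and the largest mean difference, 3 probe sets on each side of the threshold, up to 5 members each for the effects of Pi in roots, Pi in shoots and tissue, the first 12 genes with other probe sets, close gene pairs and genes with a known name or description; further examples were chosen after their values were seen. The members and lists were chosen with earlier results of these data known. Marker lists held 8 shoot, 7 root and 5 constitutive genes, of which 2, 6 and 4 were matched. The fit was tested on simulated data with known changes. Alternatives were other thresholds and summaries of the rule, median centring, quantile normalization, array weights, a replicate block, a filter on probe sets spanning under 0.2 log2 units, a trended prior, an unmoderated test, fits to each tissue, and leaving out each array.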

Additional observations from a re-analysis of the deposited data

How the results depend on the processing

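The number of probe sets meeting the rule was 244 with a threshold of -4 and 74 with -6, and it ran from 107 to 189 when each array was left out in turn, the highest without PB1 shoot -Pi replicate 2 and the lowest without replicate 1 or 3 of the same group; without any other array it was 128 to 139. Group medians in place of means gave 191, 131 of them members, and quantile normalization 110, 106 of them members. Left-out arrays moved the members changed by Pi in roots between 15 and 44, those changed by Pi in shoots between 8 and 22, those differing between tissues between 46 and 81, and the other probe sets called lower in Dular in shoots at -Pi between 18 and 23. With at least 2-fold required, 8, 2 and 18 members were called for Pi in roots, Pi in shoots and tissue. Fits to the arrays of 1 tissue called 42 members for Pi in roots and 7 in shoots, and 12 other probe sets lower in Dular in shoots at -Pi; array weights called 20 and the unmoderated test 19 members for Pi in shoots. The cause of these shifts was not tested. No called value changed sign, but 10 of the genotype differences in other probe sets of named genes, none of them called, did so under at least 1 alternative; that of Os.3808.2.S1_x_at in shoots at +Pi ran from -1.30 to 0.59. Replicate numbers did not pair the arrays, since deviations of arrays with the same number correlated over 0.1 in 14 of 84 pairs; with the replicate block, 21, 13 and 51 members were called for Pi in roots, Pi in shoots and tissue, and the adjusted p of the glycosyl hydrolase and C3HC4 zinc finger genes for Pi in roots rose to 0.0620 and 0.0549. Neither scaling moved the median of all probe sets by over 0.1 log2 units.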
